A study of Glycine max with 18 samples.

Results

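The 128 genes described here form a mid maturation pulse in soybean (Glycine max): their transcripts stood high in embryos of 1 stage of seed filling and low before and after it. They were chosen from 51546 genes by their normalized values. A gene was taken when its mean over the 3 mid maturation libraries was at least 10 and at least 4 times its mean at each of the other 5 stages. 135 genes met both conditions. The rule sets aside 12 identifiers, among them glycinin genes, and 7 of those 12 had met them, which left the 128. The same rule with another stage as the high one gave 261 genes for cotyledon, 56 for early maturation, 101 for late maturation, 169 for dry seed and 2057 for seedling. These numbers depend on which stages were sampled.

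All material was of the cultivar Williams 82, and every stage had 3 biological replicates. Seeds measured 2.5 to 3.5 mm for the cotyledon stage and 6 to 7 mm for early maturation, and embryos were taken from them. For mid maturation the embryos came from seeds of 200 to 250 mg, and for late maturation from seeds of 230 to 500 mg that had turned yellow throughout. Mature dry seeds and seedlings 8 days after sowing closed the series. The labels call the seedlings whole, while the heading of their values carries the added letters COT, so the tissue behind them is uncertain. Tissue changes along with stage in these last steps, since embryos, seeds and seedlings were sampled, so the contributions of tissue and stage cannot be told apart. In whole organs, fewer cells of a type and less RNA per cell cannot be told apart either.

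During maturation a legume embryo stops dividing and fills the cells of its cotyledons, the storage organs, with protein, oil and sugars. Storage protein transcripts are known to become very abundant in this period and to be lost as the seed dries. The dry seed keeps stored transcripts, and after sowing the reserves are broken down while the seedling turns green. Neither the files nor the RefSeq gene table (Glycine max v4.0, 59048 genes) pairs the identifiers with a name or a function, and 0 of the 128 members matched that table. The members are therefore given by identifier, without a role, and no sequence is shown. The rule itself calls 4 of the identifiers it sets aside glycinins, which are seed storage proteins. The values of these 4 summed to 39.3 to 65.0 in cotyledon, 5291 to 9290 in early maturation, 316604 to 326074 in mid maturation, 13609 to 56877 in late maturation, 11369 to 30065 in dry seed and 42.8 to 82.3 in seedling libraries. The labelled tissues were not checked against other marker genes.

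The deposited value of a gene is a read count divided by a factor of its library, so values behave like counts per-million (CPM) with a further scaling factor. Recovered reads ranged from 3572134 to 8776240 per library. 3 reads, the floor used for a gene with none, were worth 0.263 to 1.30. The scaling is uneven across stages and bears on the choice of members: the ratio of a value to plain CPM averaged 1.57 at mid maturation, against 0.736 for cotyledon, 0.915 for early maturation, 1.13 for late maturation, 1.14 for dry seed and 0.738 for seedling. On plain CPM all 128 members still had their highest mean at mid maturation, 125 of them by at least 2-fold, but the rule applied to that scale kept 60. The median ratio of mid maturation to the next-highest stage was 6.96 on the deposited scale and 4.16 on plain CPM.

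**Figure D1:**
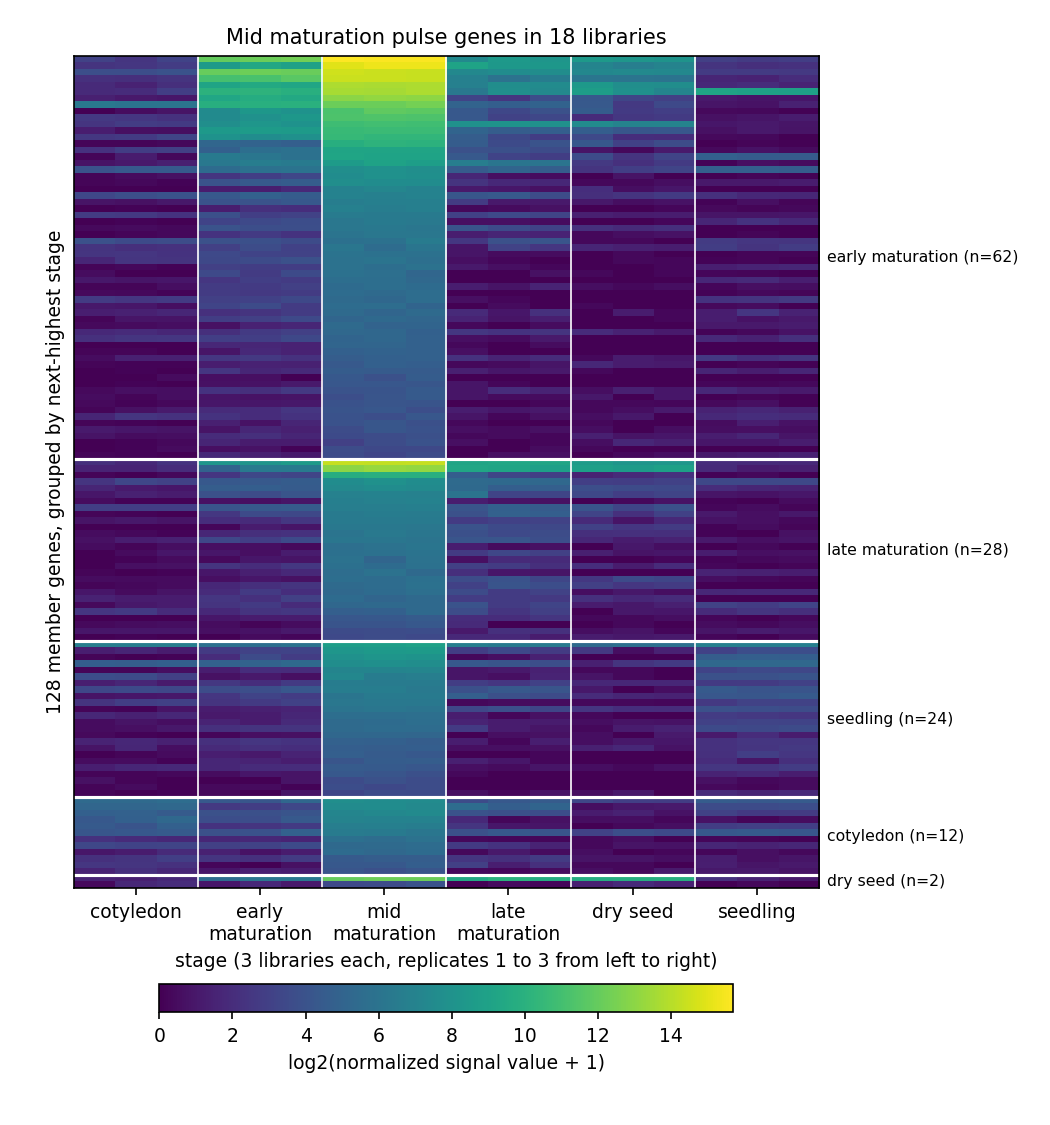
Each row is 1 of the 128 members and each column 1 of the 18 libraries, with color for log2(value + 1). White lines separate stages and the groups of members by their next-highest stage, and within a group the rows run from the highest to the lowest mid maturation mean. The 3 mid maturation columns are the brightest in every row, since the rule chose the genes that way. The second-brightest stage is early maturation for 62 rows, late maturation for 28 and seedling for 24.

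Members differed widely in height. Mid maturation means ran from 10.2 to 50819 with a median of 57.7. Of the 128, 84 lay between 10 and 100, 27 between 100 and 1000, and 17 at 1000 or above. These levels are reads per gene without a correction for transcript length, so they do not rank genes by molecules. Replicates agreed closely at the peak, with a median coefficient of variation of 8.95% and a highest one of 34.1% (n = 3 libraries). In the libraries that the rule used, which come close to fixing this, the lowest mid maturation value was above the highest of the 15 other libraries for all 128 members. It was at least 4 times that value for 84.

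Glyma.08G116300 was the most abundant member. Its values at mid maturation were 53040, 49627 and 49790, and those in early maturation were 4049, 4681 and 5339. In cotyledon embryos it stood at 7.67, 4.45 and 7.91, in late maturation at 176, 344 and 290, in dry seed at 363, 309 and 262, and in seedlings at 6.72, 5.53 and 6.58. The libraries of mid maturation thus lay far above the rest, those of late maturation and dry seed overlapped, and cotyledon and seedling libraries were both near the bottom. Glyma.13G288100, second in abundance, had 31994, 39798 and 39539 at mid maturation. It had 368, 672 and 505 in early and 551, 327 and 313 in late maturation, which overlap. It had 4.21, 4.63 and 5.84 in cotyledon embryos, 137, 104 and 127 in dry seed, and 4.07, 3.32 and 3.69 in seedlings.

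The members with the highest ratio to their next stage were moderate in level. Glyma.13G170800 stood at 108, 119 and 122 at mid maturation. Its next-highest stage was late maturation, at 1.36, 0.761 and 0.659, a ratio of means of 125. Its early maturation values of 0.638, 0.540 and 0.869 overlapped with those of late maturation. Glyma.09G158700 had 122, 148 and 126 at mid maturation and 1.28, 1.44 and 2.50 in early maturation, a ratio of 75.96. It had no read in any cotyledon or seedling library. The ratio reached 5 for 98 members, 10 for 43, 20 for 21 and 50 for 6.

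At the edge of the rule, Glyma.13G216400 and Glyma.18G233100 were just inside with ratios of 4.07 and 4.09. Glyma.09G235200 and Glyma.06G209900 were just outside with 3.999 and 3.98. Of the genes that met the ratio, Glyma.13G134700 and Glyma.02G300700 had the lowest means inside, 10.2 each, and Glyma.11G022800 and Glyma.06G047300 the highest means outside, 9.83 and 8.95. To read the rule in libraries it had not used, 1 replicate number of every stage was left out of the choice. The 125, 127 and 125 genes chosen without replicates 1, 2 and 3 shared 116, 117 and 118 with the 128 members. In the libraries left out, the mid maturation value was the highest of 6 for 124, 127 and 125 of them, and at least 4 times every other for 103, 107 and 104. Over all genes with a value of 10 or more in the mid maturation library left out, 137 of 14650 (0.935%), 134 of 14763 (0.908%) and 138 of 14125 (0.977%) met that 4-fold condition. The chosen genes were not taken out of these totals. The libraries left out share stages and scaling with those used, so the counts describe agreement among replicates only.

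The low levels outside the peak were not equally low on both sides. Early maturation held a median of 8.96% of a member's mid maturation mean, late maturation 2.91%, seedling 2.15%, dry seed 1.21% and cotyledon 1.10%. Only 5 members were under 1% of their peak in early maturation, against 36 in late maturation, 61 in dry seed, 56 in seedlings and 62 in cotyledon embryos. Low read numbers limit these counts. At most 3 reads in every library of the stage were found for 2 members in early maturation and 33 in late maturation. The same held for 53 members in dry seed, 30 in seedlings and 35 in cotyledon embryos. Early maturation exceeded late maturation for 88 members, by at least 4-fold for 49, and late exceeded early for 40, by at least 4-fold for 9. The group with early maturation second (62 members) held 14 of the 17 members at 1000 or above. The group with late maturation second (28) held 2 of them, and 1 had dry seed second. The 24 members with seedling second reached at most 461 at mid maturation, and the 12 with cotyledon second at most 200.3. For the seedling group the median seedling level was 14.4% of the peak, against 2.67% in late maturation.

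As a group the 128 genes held 14.5%, 14.4% and 14.8% of the reads of the mid maturation libraries, a mean of 14.6% ± 0.25 (SD, n = 3). Cotyledon embryos gave them a share of 0.0849% ± 0.0065 and early maturation embryos one of 2.01% ± 0.243. After the peak the share was 0.388% ± 0.0262 for late maturation, 0.289% ± 0.0225 for dry seed and 0.148% ± 0.0056 for seedlings. Glyma.12G217400 held 48.9% of the members' reads in seedlings, and without it the seedling share was 0.0758% ± 0.0011. Few members carried this share. At mid maturation Glyma.08G116300 alone held 22.4% of the members' reads, the 5 most abundant members 66.95% and the 10 most abundant 88.4%. In late maturation the same 10 held 55.4% of the members' reads, and in cotyledon embryos 17.5%. Since the rule chose the genes on these libraries, the shares describe them and were not tested.

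**Figure D2:**
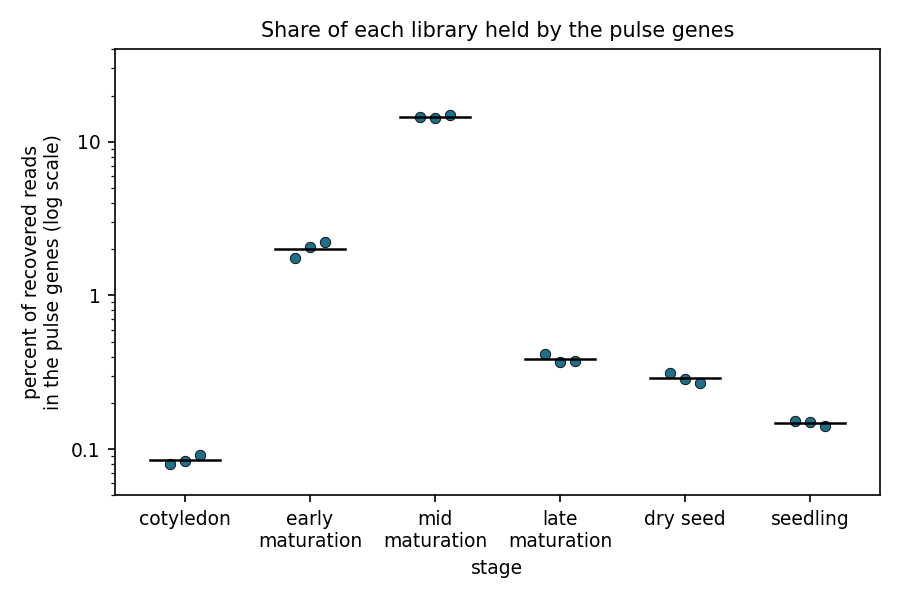
Percent of the recovered reads of each library that fell in the 128 members, on a log scale, by stage. Points are the 3 libraries of a stage and bars their mean. The mid maturation libraries lie at 14.4% to 14.8%, early maturation at 1.75% to 2.23%, and every other library under 0.5%.

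The steps to and from mid maturation made the rule, so they were not tested. Pairs of the other stages were compared with limma on log2(value + 1), fitted to the 36872 genes whose value reached 1 in 3 or more libraries. Calls required an adjusted p (Benjamini-Hochberg, all those genes) under 0.05 together with a log2 difference of 1 or more in size. All 128 members passed the filter, as their mid maturation values secure. The rule still capped each of these stages relative to the peak. Pairs that have a stage in common share its 3 libraries, so their differences are not independent. Members near 0 reads at both stages of a pair have little room for a call: between 13 and 40 members had a mean under 1 at both stages, depending on the pair, and none of them was called.

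Most members had already risen by early maturation. In early maturation against cotyledon embryos 73 of the 128 members (57.0%) rose, where 8.53% of all genes tested did, and 4 (3.13%) fell, where 10.2% of all genes did. The median log2 difference was 1.25 for the members and 0.00 for all genes tested. The 17 members at 1000 or above all rose, with a median of 6.42, whereas 17 of the 27 members between 100 and 1000 and 39 of the 84 below 100 did. Differences of genes with low values are understated on this scale. With a pseudocount of 4 in place of 1 the members that rose numbered 43, where 4.93% of all genes did.

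Among the members the largest rises were those of 2 abundant genes. Glyma.08G116300, whose libraries are given above, averaged 4690 ± 645 in early maturation and 6.68 ± 1.94 in cotyledon embryos (SD, n = 3 each; log2 difference 9.28, SE 0.207, limma adjusted p = 1.58e-18). Glyma.13G347500 had 2170, 2320 and 3316 in early maturation, against 3.61, 3.33 and 4.15 in cotyledon embryos. Its log2 difference was 9.09 (SE 0.188, limma adjusted p = 5.96e-19), and the stages do not overlap. Both genes then stood at about 9.23% and 11.9% of their own mid maturation mean.

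The 4 members that fell followed another course, since they were present in cotyledon embryos, lower in early maturation and high at mid maturation. Glyma.14G159400 had 5.21, 6.11 and 9.34 in early maturation, against 35.5, 35.5 and 38.4 in cotyledon embryos, and then 186, 194 and 167 at mid maturation. Its log2 difference in early maturation was -2.28 (SE 0.196, limma adjusted p = 5.11e-09). Glyma.01G172200 had 3.83, 4.32 and 5.32 in early maturation, against 20.9, 16.2 and 27.5 in cotyledon embryos, and reached 106, 110 and 98.5 at mid maturation. Its log2 difference was -2.02 (SE 0.286, limma adjusted p = 5.75e-06). The others, named after their values were seen, were Glyma.14G159500, with a log2 difference of -2.04, and Glyma.01G124500, with -2.61. With a pseudocount of 4 the difference of Glyma.14G159500 was -0.93 and not called. Glyma.01G124500 averaged 0.753 ± 0.286 in early maturation and 9.90 ± 2.79 in cotyledon embryos, and 115 ± 30.2 at mid maturation.

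Once the peak had passed, most called members stood below their level ahead of it. In late against early maturation 51 members (39.8%) fell, where 30.0% of all genes tested did, and 14 (10.9%) rose, where 21.1% of all genes did. The median log2 difference was -0.63 for the members and -0.18 for all genes. With a pseudocount of 4 the members that fell numbered 30 of 128, where 20.6% of all genes did.

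Glyma.13G035200 fell furthest, to 7.90, 4.37 and 12.1 in late maturation, against 616, 828 and 708 in early maturation (log2 difference -6.38, SE 0.277, limma adjusted p = 8.65e-15). Its peak had been 7854, 9067 and 8508. Glyma.13G194400 had 30.8, 24.3 and 30.1 in late maturation, against 914, 954 and 996 in early maturation (log2 difference -5.03, SE 0.270, limma adjusted p = 2.52e-13). The stages do not overlap for either gene. On the other side, Glyma.02G145700 had 706, 1030 and 820 in late maturation, against 45.7, 72.7 and 75.7 in early maturation (log2 difference 3.72, SE 0.209, limma adjusted p = 5.46e-13). Glyma.12G213600 had 615, 569 and 463 in late maturation, against 29.3, 86.9 and 86.8 in early maturation (log2 difference 3.15, SE 0.277, limma adjusted p = 9.75e-10). Glyma.02G145700 and Glyma.12G213600 thus averaged 852 ± 164 and 549 ± 77.6 in late maturation, after peaks of 4557 ± 289.6 and 8998 ± 1085 (SD, n = 3).

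Nearly all members called between late maturation and the dry seed fell. In dry seed against late maturation 44 members (34.4%) fell, where 14.5% of all genes tested did, and 1 (0.781%) rose, where 7.84% of all genes did. The median log2 difference was -0.65 for the members and -0.10 for all genes. Of the 17 members at 1000 or above 4 fell, and of the 27 between 100 and 1000 14 fell. With a pseudocount of 4 the members that fell numbered 24, where 6.92% of all genes tested fell, and none rose, where 4.83% did. With no limit on the difference 70 fell and 6 rose, where 29.6% and 19.4% of all genes did. On recovered reads edgeR called 4 members higher, where 9.83% of all genes were, and DESeq2 6, where 12.4% were.

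Glyma.14G159400 fell to 0.517, 1.06 and 1.17 in dry seed, against 45.0, 24.3 and 31.9 in late maturation (log2 difference -4.16, SE 0.196, limma adjusted p = 1.25e-12). Glyma.09G234700 had 5.17, 3.43 and 5.38 in dry seed, against 104, 67.9 and 64.4 in late maturation (log2 difference -3.80, SE 0.197, limma adjusted p = 4.27e-12). No dry seed library overlapped with late maturation for these genes, and late maturation replicate 1 was the highest of its stage for both. The member that rose, named after its values were seen, was Glyma.08G314200, with 1.55, 2.64 and 1.87 in dry seed, against 0, 0.380 and 0.220 in late maturation. That is 6 to 10 reads per dry seed library. Its log2 difference was 1.33 (SE 0.311, limma adjusted p = 0.00117), and with a pseudocount of 4 it was 0.52 and no longer called. The most abundant member, Glyma.08G116300, was not called in this step, and averaged 312 ± 50.6 in dry seed and 270 ± 85.8 in late maturation (SD, n = 3 each, limma adjusted p = 0.361). The same held for Glyma.02G145700, with 841, 889 and 921 in dry seed and 706, 1030 and 820 in late maturation (limma adjusted p = 0.846).

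In seedlings against dry seed the most abundant members fell, and calls among the rest went both ways. 44 members (34.4%) rose, where 41.8% of all genes tested did, and 33 (25.8%) fell, where 19.8% of all genes did. The median log2 difference was 0.21 for the members and 0.58 for all genes. Of the 17 members at 1000 or above 16 fell and 1 rose. Of the 27 members between 100 and 1000, 6 fell and 12 rose, and of the 84 below 100, 11 fell and 31 rose. A gene with few reads in dry seed has no room to fall: 53 members had at most 3 reads in every dry seed library and 16 had none. With a pseudocount of 4 the members that rose numbered 23, where 26.3% of all genes did.

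Glyma.02G145700 fell to 3.56, 1.94 and 1.23 in seedlings, against 841, 889 and 921 in dry seed (log2 difference -8.15, SE 0.209, limma adjusted p = 1.67e-18). Glyma.12G213600 had 2.65, 1.25 and 1.58 in seedlings, against 454, 394 and 493 in dry seed (log2 difference -7.33, SE 0.277, limma adjusted p = 5.37e-16). These members, with the 2 highest dry seed means of the 128, had seedling libraries that overlapped with those of cotyledon embryos. Glyma.13G224400 had 24.2, 26.1 and 24.4 in seedlings, against no read in any dry seed library. That is at least 31.5-fold higher when each dry seed library is given 3 reads (limma adjusted p = 1.64e-12). Glyma.14G103700 had 21.2, 16.0 and 15.9 in seedlings, against 1.03, 0 and 0.468 in dry seed (log2 difference 3.69, SE 0.214, limma adjusted p = 6.19e-13). For Glyma.14G103700 the late maturation values of 13.4, 19.6 and 16.3 overlapped with those of seedlings.

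**Figure D3:**
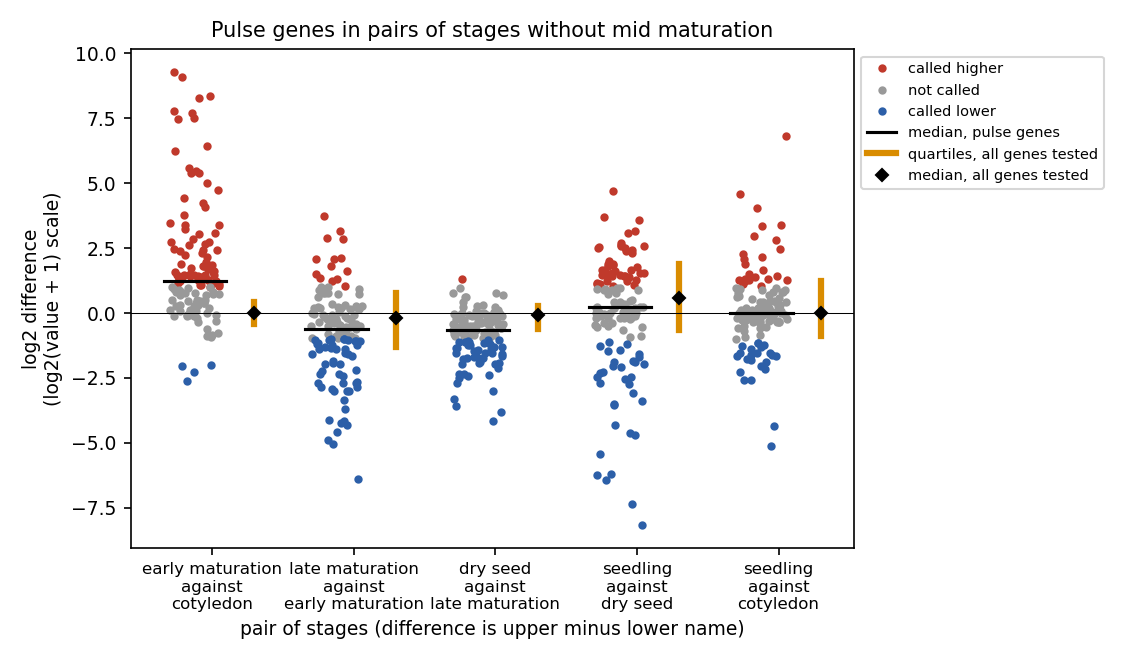
Log2 differences of the 128 members in 5 pairs of stages that leave out mid maturation, on the log2(value + 1) scale. Each point is a member, colored by its limma call, and black bars are the members' medians. Orange bars give the quartiles, and black diamonds the median, of the 36872 genes tested. Red points dominate in early maturation against cotyledon (73 called higher, 4 lower, where 8.53% and 10.2% of all genes tested were). In dry seed against late maturation most points are grey, for 83 members not called. Blue points outnumber red ones there (44 lower, 1 higher, where 14.5% and 7.84% of all genes were).

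Between the first and the last stage, members were called in both directions. In seedlings against cotyledon embryos 24 members (18.8%) were higher, where 28.4% of all genes tested were, and 23 (17.97%) were lower, where 22.7% of all genes were. The median log2 difference was -0.00 for the members and -0.01 for all genes. Glyma.12G217400 stood apart, with 585, 525 and 500 in seedlings, against 2.71, 2.96 and 6.49 in cotyledon embryos (log2 difference 6.81, SE 0.331, limma adjusted p = 5.35e-14). Its peak was 12860, 12261 and 13801, and it had 423, 231 and 141 in dry seed. It was also the member at 1000 or above that rose in seedlings against dry seed (log2 difference 1.16, SE 0.331, limma adjusted p = 0.00305), where the stages do not overlap. That call was lost after upper-quartile rescaling (log2 difference 0.68), with edgeR (0.99) and without dry seed replicate 3 (0.77). Glyma.13G224400 was second, with a mean of 24.9 ± 1.06 in seedlings and 0.0934 ± 0.0816 in cotyledon embryos (SD, n = 3 each, log2 difference 4.57, limma adjusted p = 3.87e-12). Among those that were lower, Glyma.13G194400 had 0.814, 0.692 and 1.67 in seedlings, against 75.5, 65.6 and 65.0 in cotyledon embryos (log2 difference -5.11, SE 0.270, limma adjusted p = 2.01e-13). Glyma.06G297400 had 0.713, 0.138 and 0.439 in seedlings, against 19.4, 27.6 and 38.5 in cotyledon embryos (log2 difference -4.34, SE 0.300, limma adjusted p = 1.81e-11). With a pseudocount of 4, 11 members were higher and 11 lower, where 19.1% and 15.9% of all genes were. On recovered reads edgeR called 38 higher and 32 lower, where 32.0% and 26.4% of all genes were. DESeq2 called 42 higher and 30 lower, where 34.4% and 22.1% of all genes were.

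Libraries of 1 stage did not carry the members evenly. In early maturation the highest of the 3 values lay in replicate 3 for 68 of 128 members (53.1%), against 38.1% of all genes tested, and in replicate 1 for 15 (11.7%), against 31.5% of all genes. In late maturation it lay in replicate 1 for 63 of the 123 members with any read (51.2%), against 38.1% of all genes. Within mid maturation replicates 1, 2 and 3 held the highest value for 38, 47 and 43 members (29.7%, 36.7% and 33.6%). The shares over all genes tested were 33.7%, 38.4% and 27.9%. Without early maturation replicate 3, 71 members rose and 6 fell in early maturation against cotyledon, where 9.43% and 11.4% of all genes tested did. In late against early maturation 16 then rose and 47 fell, where 21.5% and 30.1% of all genes did. Without late maturation replicate 1, 15 members rose and 50 fell in late against early maturation, where 21.6% and 30.4% of all genes did. In dry seed against late maturation 2 then rose and 41 fell, where 7.14% and 13.9% of all genes did.

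Some members sat side by side in the genome. In soybean identifiers the digits ahead of the letter G name the chromosome, and those after it follow the order along it. 14 of the 128 members formed 6 runs of neighbouring identifiers, 4 runs of 2 and 2 runs of 3. Of the 256 places next to a member in the order of the files, members held 16 (6.25%), whereas members were 0.248% of all genes. Of the 185 neighbours that were not members and reached a mean of 1 at some stage, 33 (17.8%) had their highest mean at mid maturation, against 10.7% of the 37787 genes with such a mean. Chromosome 13 held 15 members among 3474 genes, chromosome 2 held 13 among 2931 and chromosome 14 held 11 among 2013, and chromosome 16 held 1 among 2027. No test was made of these shares. Neighbouring copies may be near-identical, and how reads with several matches were handled is not given in the sources used here, so the values of single genes in a run are uncertain.

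All neighbours in a run peak together by the rule, while their flanks differed in some runs. Glyma.13G347500 and Glyma.13G347600 reached 21785 ± 598 and 20249 ± 370 at mid maturation (SD, n = 3). In early maturation Glyma.13G347500 had 2602 ± 623 and Glyma.13G347600 had 315 ± 51.3. In late maturation the order was the other way round, at 88.5 ± 27.5 for Glyma.13G347500 and 582 ± 26.97 for Glyma.13G347600. Their libraries do not overlap at either stage, so of these neighbours 1 was the higher ahead of the peak and the other after it. Late against early maturation gave a log2 difference of -4.89 (limma adjusted p = 1.27e-15) for Glyma.13G347500, which fell, and one of 0.89 (limma adjusted p = 6.32e-06) for Glyma.13G347600, under the limit of 1. Glyma.13G347600 passed that limit after upper-quartile rescaling (1.12) and without early maturation replicate 3 (1.02).

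The run of Glyma.09G158500, Glyma.09G158600 and Glyma.09G158700 showed a graded height, with 3188 ± 721, 1052 ± 103 and 132 ± 14 at mid maturation. Its members in early maturation stood at 253 ± 66.4, 30.8 ± 4.21 and 1.74 ± 0.663 in the same order. Late maturation values were nearly alike for the upper members, at 13.9 ± 4.84 for Glyma.09G158500 and 16.0 ± 5.99 for Glyma.09G158600, and their libraries overlap there. Glyma.13G170800 and Glyma.13G170900, at 116 ± 6.86 and 937 ± 52.8, held ratios of 125 and 69.4 to their next stage. In the run of Glyma.02G300600, Glyma.02G300700 and Glyma.02G300800 the mid maturation means were 18.5 ± 4.29, 10.2 ± 1.22 and 574 ± 3.80. Glyma.02G300600 had no read in any late maturation, dry seed or seedling library.

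Glyma.14G159400 and Glyma.14G159500 shared the course with a cotyledon level, a dip and a peak. Their means were 36.5 ± 1.68 and 4.19 ± 0.52 in cotyledon embryos, 6.89 ± 2.17 and 0.288 ± 0.332 in early maturation, and 182 ± 13.7 and 21.1 ± 3.55 at mid maturation. Both rose in late against early maturation, with log2 differences of 2.13 (limma adjusted p = 1.97e-09) and 1.82 (limma adjusted p = 7.49e-06), and both fell in dry seed against late maturation. With a pseudocount of 4 the calls of Glyma.14G159500 were lost in both pairs, at 0.84 and -0.88. Glyma.02G260100 and Glyma.02G260200, at 214 ± 22.6 and 19.8 ± 1.72 at mid maturation, both had late maturation as their next stage, at 40.1 ± 2.51 and 3.48 ± 0.795.

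**Figure D4:**
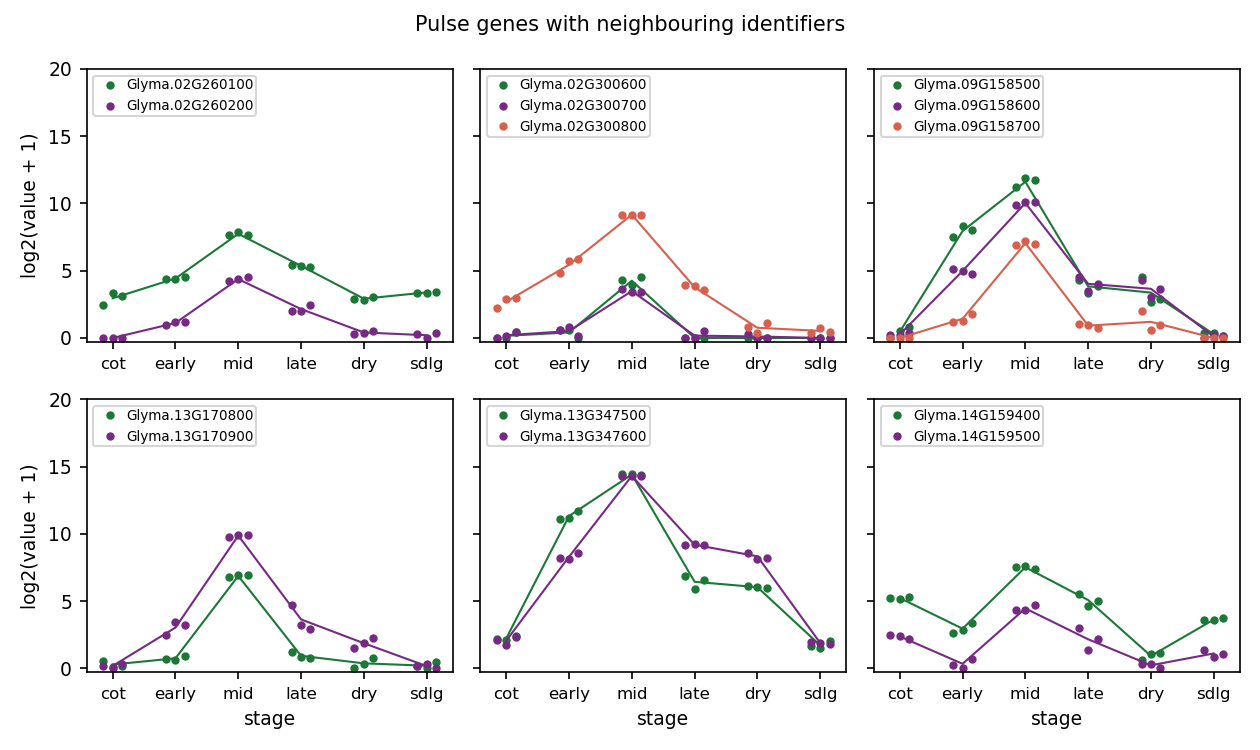
The 6 runs of members with neighbouring identifiers, 1 panel each, as log2(value + 1) by stage (cot, cotyledon; early, mid and late, the maturation stages; dry, dry seed; sdlg, seedling). Points are libraries, lines join the stage means, and colors mark the genes of a run. All lines peak at mid maturation. The 2 lines of Glyma.13G347500 and Glyma.13G347600 cross between early and late maturation, and those of Glyma.14G159400 and Glyma.14G159500 dip in early maturation.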

How the data were processed

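Messenger RNA of 18 libraries, 3 at each of 6 stages, was analysed. Each deposited file holds 1 normalized signal value per gene, and the submitters' processing notes name Bowtie 0.12.7 and edgeR 3.0.8. The genome build, annotation and counting method were not stated there. Of 927828 values, 927825 were within 0.05 of a whole multiple of their library's step, which gave the recovered reads. Members were chosen on stage means of the deposited values. limma 3.58.1 in R 4.3.3 was fitted to log2(value + 1) over all libraries, with a trend on mean level, as a two-sided test. It was checked on simulated data, where no change was set in genes with low values. That check therefore does not cover members near 0 reads. Alternatives included edgeR 4.0.16 and DESeq2 1.42.0 on recovered reads. The members and lists were chosen with earlier results of these data known. Named members are the 2 highest by level, the 2 highest by ratio, at most 2 called in each direction per pair of stages (a higher-stage mean of 10 or more, no overlap, largest difference), and those next to a threshold. Members of runs were named for their position. Gene lists by description and sequence searches were not run. Replicates are biological per the labels. Floors cover counting error only.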

Additional observations from a re-analysis of the deposited data

How the results depend on the processing

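The number of members was 197 with a fold of 3, 54 with a fold of 8, 70 with a minimum mean of 50, 60 on plain CPM, and 84 when the lowest mid maturation library had to exceed every other library 4-fold. It was 124 to 132 with 1 library left out. Without the most abundant member the share of reads was 1.499% in early, 11.3% in mid maturation and 0.261% in dry seed. Without the member with most reads in each stage, an alternative set after seeing the data, it was 0.0710%, 1.499%, 11.3%, 0.313%, 0.211% and 0.0758% from cotyledon to seedling. Members chosen on plain CPM, an alternative set after seeing the data, held 0.0118%, 1.28%, 12.04%, 0.237%, 0.179% and 0.0919% from cotyledon to seedling. Leaving out a library gave shares of 0.0813% to 0.0876%, 1.90% to 2.14%, 14.4% to 14.7%, 0.373% to 0.397%, 0.277% to 0.299% and 0.146% to 0.152% in that order.

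Of 310 counts of called members under 31 settings, 286 stayed within 1.5 times. In 18 of the settings 1 library was left out, mostly from a stage outside the pair, so many counts could hardly move. The same limit holds for the 899 recomputed values below. Percentages in parentheses below are shares of all genes tested that were called the same way. A pseudocount of 4 left 43 members higher in early maturation against cotyledon (4.93%) and 30 lower in late against early maturation (20.6%). In dry seed against late maturation it left 24 lower (6.92%) and 0 higher (4.83%). DESeq2, edgeR and upper-quartile rescaling called 6, 4 and 3 members higher there (12.4%, 9.83% and 11.2%). In that pair 82 members had an unadjusted limma p under 0.05 in either direction, with no share over all genes computed. The pseudocount of 4 left 23 higher in seedling against dry seed (26.3%). In seedling against cotyledon it left 11 higher (19.1%) and 11 lower (15.9%). With no limit on the difference 9 were lower in early maturation (23.2%) and 24 higher in late against early maturation (31.4%). In dry seed 70 were lower (29.6%) and 6 higher (19.4%) without that limit. In seedling against cotyledon 41 were higher (38.4%), where edgeR called 38 (32.0%) and DESeq2 42 (34.4%). Plain CPM left 8 lower in early maturation (16.0%). In dry seed the members that rose were 2 after median-of-ratios rescaling (10.3%) and 3 with a pseudocount of 0.5 (9.06%). They were 1 to 2 with a library left out (7.14% to 8.78%). Causes of the members' levels were not tested. Of 899 recomputed values for 29 differences of named members, including ones named after their values were seen, 887 kept direction and call, 7 lost the call and 3 gained it. The 2 that changed sign were uncalled throughout: in dry seed against late maturation, leaving out a library gave -0.0321 to 0.449 for Glyma.08G116300 and -0.0573 to 0.215 for Glyma.02G145700, each lowest without late maturation replicate 1. Relative to the deposited scaling, the median of all genes moved by -0.37 to 0.18 on the log2 scale after upper-quartile and by -0.04 to 0.21 after median-of-ratios rescaling. Plain CPM moved it by -0.29 to 0.51.

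No clear pairing of libraries by replicate number was seen, though with 3 libraries per stage this check cannot exclude one. Between adjacent stages, deviations from the stage mean gave correlations of -0.154 to 0.109 over 15 pairs with a shared number, of which 2 were over 0.1. The best partner of 8 of the 18 libraries carried its own number. With the replicate block every count of called members, and its share over all genes tested, was as reported above to the digits given. Depth limits the members outside the peak, where 2 to 53 of the 128 had at most 3 reads in every library of a stage.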
